A study of Mus musculus with 4 samples.

Results

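The antioxidant, glutathione and selenoprotein genes were examined in the dermis of mouse wounds, in 2 immune cell populations isolated by FACS from the wound bed at day 5. They were taken by gene symbol from the deposited transcript table: every glutathione peroxidase (Gpx), peroxiredoxin (Prdx), superoxide dismutase (Sod), glutathione S-transferase (Gst) and thioredoxin-named gene (Txn), and 15 further genes given by name, among them Sepp1, Cat, Gclm, Gsr, Nqo1, Nfe2l2 and Keap1. This gave 74 genes with 102 transcripts, of 24358 genes in all. One population was CD301b macrophages, which bear the C-type lectin CD301b, and the other was F4/80-negative immune cells, which by name lack the macrophage surface protein F4/80. The mice were C57/Bl6 males of 7 weeks, with no mutant allele or agent named, and each population had 2 libraries. Macrophages without CD301b were not analysed here, so a difference between the populations cannot be tied to CD301b. The labels give neither the sorting gates nor whether a library came from 1 animal or several.

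Reactive oxygen is made in wounds by phagocytes and is removed by layered enzyme systems. Superoxide dismutases turn superoxide into hydrogen peroxide, which catalase, glutathione peroxidases and peroxiredoxins then break down. Glutathione peroxidases draw electrons from glutathione, a tripeptide made by glutamate-cysteine ligase and glutathione synthetase and returned to its reduced form by glutathione reductase, and peroxiredoxins draw theirs from thioredoxin. Selenoproteins carry the amino acid selenocysteine, which is read from a TGA codon that would otherwise end the protein. NRF2, encoded by Nfe2l2, is the transcription factor that induces many of these genes, and KEAP1 holds it in check.

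Expression was given as FPKM (a read density corrected for transcript length and for sequencing depth), with 1 value per transcript and population. FPKM was summed over the transcripts of a gene. Values of the 2 single libraries were not analysed here, so no FPKM carries an error, and the depth behind it is unknown. Significance rests on the p-values that the authors deposited for each transcript, which were adjusted here over all tested transcripts and read at a threshold of 0.05. How these p-values take the spread between the libraries into account is not stated, and that spread may be technical. A gene was called higher or lower in CD301b macrophages when a transcript passed that threshold, none passed in the other direction and the summed FPKM moved the same way. The smallest adjusted p that this table allows is 0.000999.

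Marker genes of the cells that could be present were read first. All 15 macrophage markers were higher in CD301b macrophages, and their summed level was 25413 FPKM against 10496 FPKM in F4/80-negative cells. Markers of dendritic and Langerhans cells went the other way, 10 of 12 being lower, with a sum of 350 FPKM in F4/80-negative cells against 80.7 in CD301b macrophages. Fibroblast transcripts were abundant in both populations, with Col1a1 at 1676 against 1293 FPKM. Adgre1, which encodes F4/80, was 151 FPKM in F4/80-negative cells against 557 in CD301b macrophages, so the transcript was not absent from the cells sorted as negative. In such bulk samples, fewer cells of a type and less RNA per cell cannot be told apart.

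Of the 74 genes, 59 had a tested transcript. In CD301b macrophages 5 were higher (Sepp1, Gstm1, Gclm, Txndc16 and Cat), 3 were lower (Gsr, Gpx8 and Srxn1) and 51 did not pass the threshold. The higher genes made up 8.47% of the tested members, beside 11.0% of all 13039 tested genes, and the lower genes made up 5.08%, beside 6.20% of all tested genes. The shares of members called were near those of all genes, so the counts are not a result about the group. Of the members not called, 11 had an unadjusted p under 0.05, 5 of them with the higher FPKM in CD301b macrophages and 6 with the lower. That p was the smallest over a gene's transcripts, and in Prdx6, Txndc11 and Txnip it came from a transcript other than the main one. The same share over all tested genes was not counted, so this too is not a result about the group. The median log2 fold of the tested members was 0.09 on the log2(FPKM + 1) scale, beside 0.05 for all tested genes. Of the tested members, 79.7% differed by less than 1.5-fold, beside 72.6% of all tested genes. The remaining 15 members were not tested and none of them exceeded 0.466 FPKM in either population. They were Gpx2, Gpx2-ps1, Gpx5, Gpx6, Gsta1, Gsta2, Gsta3, Gstm3, Gstm6, Gstm7, Gsto2, Gstt4, Prdx6b, Txndc2 and Txndc8, of which Gpx5, Gpx6 and Txndc8 were listed at 0 in both populations.

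**Figure D1:**
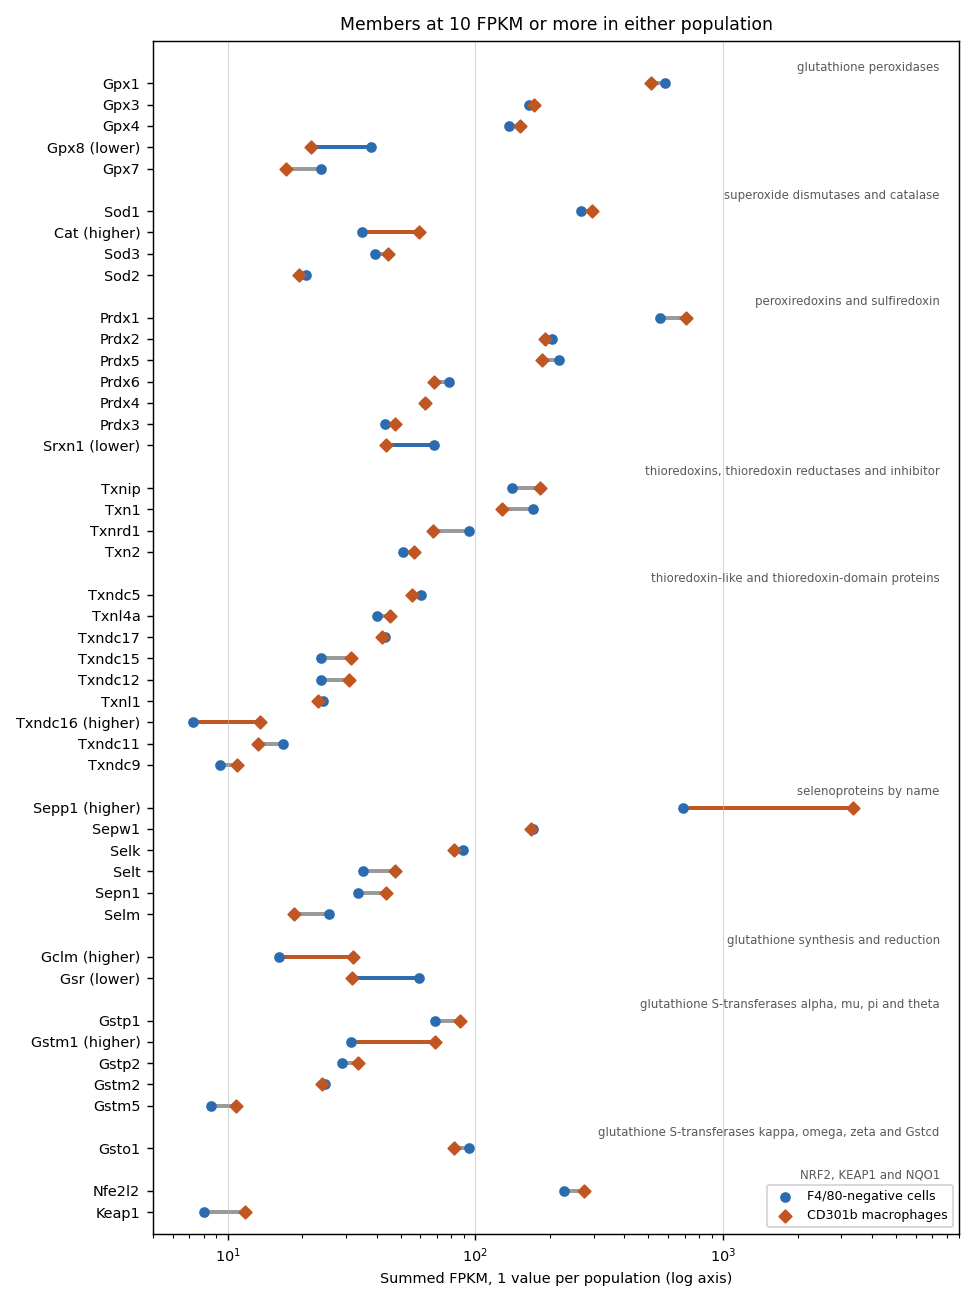
Summed FPKM on a log axis for the 45 members at 10 FPKM or more in either population, grouped by role, with circles for F4/80-negative cells and diamonds for CD301b macrophages and 1 value per population. Most pairs lie close together, and Sepp1 stands apart at 691 and 3362 FPKM.

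**Figure D2:**
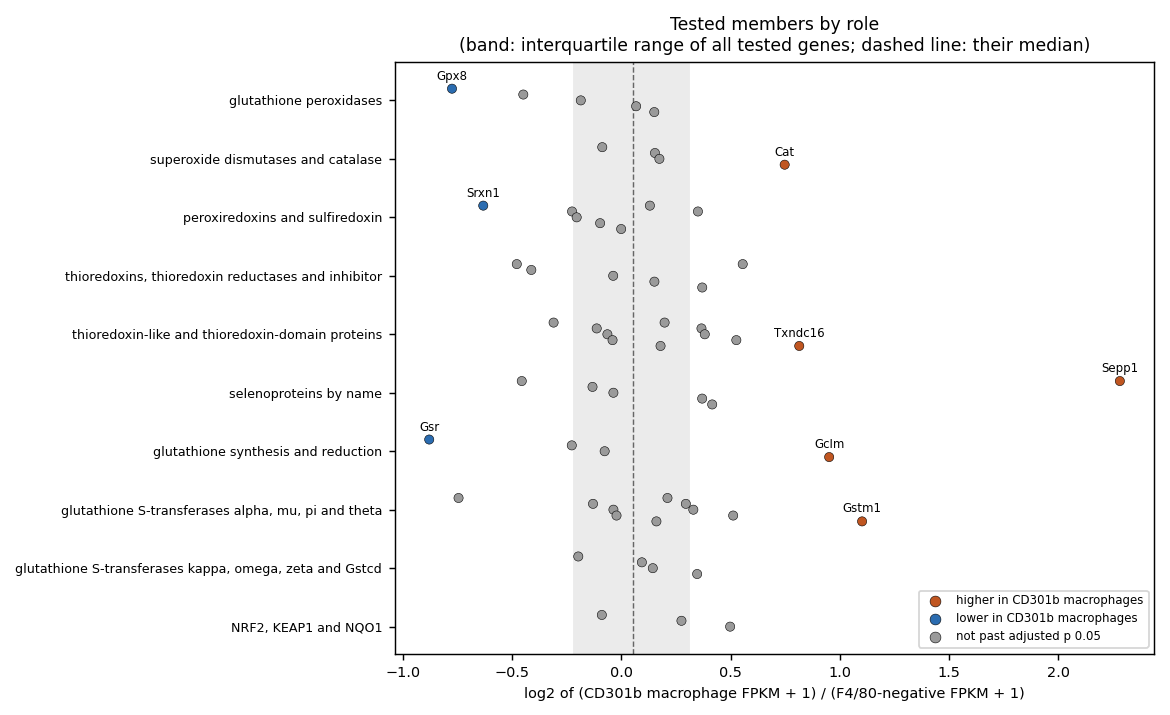
Log2 fold of the 59 tested members by role, on the log2(FPKM + 1) scale, with genes past the adjusted p of 0.05 coloured and named. The band spans the interquartile range of all tested genes, from -0.22 to 0.31, and the called members lie outside it on both sides.

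Selenoproteins were the role with the largest summed FPKM in CD301b macrophages, and most of it was from 1 gene. Sepp1 encodes selenoprotein P, a secreted protein that carries selenium between tissues (NCBI gene 20363, now Selenop, chromosome 15, 3270767 to 3280510, GRCm38). It was 691 FPKM in F4/80-negative cells against 3362 in CD301b macrophages, which is 4.87-fold higher. Among all genes it ranked 128th in the first population and 9th in the second. Sepp1 made up 14.03% of the members' summed FPKM in F4/80-negative cells and 43.4% in CD301b macrophages. The summed FPKM of all members was 4924 in F4/80-negative cells against 7754 in CD301b macrophages, a ratio of 1.57, and the ratio was 1.04 without Sepp1. Macrophage markers moved with Sepp1, their sum being 2.42-fold higher with none of the 15 at 0 in either population. Single markers ran from 1.78-fold higher for Cd68 to 4.89-fold higher for Cd163, with Maf at 4.77-fold. The part of these markers in the Sepp1 difference, and in those of the other higher members, was not tested.

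The GENCODE annotation of GRCm38 marks selenocysteine codons in 24 mouse genes, 13 of them members, and 22 of the genes hold 1 such codon. Sepp1 holds 10, which sets it apart in sequence as well as in level, and the codons of 5 abundant selenoproteins are shown to make that visible. In each line below, the selenocysteine codon is in capitals and 12 coding bases are given on each side where the reading frame allows it, 5′ to 3′ on the coding strand.
Gpx1, exon 1, chr9:108339451-108339453, plus strand: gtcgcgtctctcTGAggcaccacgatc
Gpx4, exon 3, chr10:80054737-80054739, plus strand: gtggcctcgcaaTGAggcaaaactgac
Sepw1, exon 2, chr7:15920464-15920466, minus strand: tattgtggagctTGAggctataagccc
Txnrd1, exon 15, chr10:82896037-82896039, plus strand: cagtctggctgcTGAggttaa
Sepp1, first of 10 codons, exon 2, chr15:3274848-3274850, plus strand: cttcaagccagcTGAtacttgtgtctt
In Txnrd1 a single codon separates the selenocysteine codon from the stop codon. The last 7 selenocysteine codons of Sepp1 lie in a coding stretch of 192 bases in exon 5, at chr15:3279513-3279704 on the plus strand.
Sepp1, codons 4 to 10: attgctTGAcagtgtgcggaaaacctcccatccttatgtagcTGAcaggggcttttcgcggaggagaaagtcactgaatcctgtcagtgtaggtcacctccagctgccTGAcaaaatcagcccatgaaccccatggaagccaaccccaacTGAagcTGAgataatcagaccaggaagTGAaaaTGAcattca

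Of the 24 selenocysteine genes, 19 were tested, Sepp1 was higher, none was lower and 18 did not pass the threshold. Without Sepp1 their log2 folds ran from -0.48 to 0.56 with a median of -0.04, and 10 of the 18 were below 0. Their summed FPKM without Sepp1 was 1843 in F4/80-negative cells and 1716 in CD301b macrophages. Sepw1, a small selenoprotein abundant in muscle, was 172 and 167 FPKM. Selk, a selenoprotein of the endoplasmic reticulum, was 89.5 FPKM in F4/80-negative cells against 81.7 in CD301b macrophages. Selt, also of the endoplasmic reticulum, was 35.3 and 47.4 FPKM (adjusted p = 0.132, from the p in the authors' deposited table). Sepn1, at 33.6 and 43.7 FPKM, and Selm, at 25.7 and 18.5 FPKM, did not pass the threshold either. Both are proteins of the endoplasmic reticulum.

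**Figure D3:**
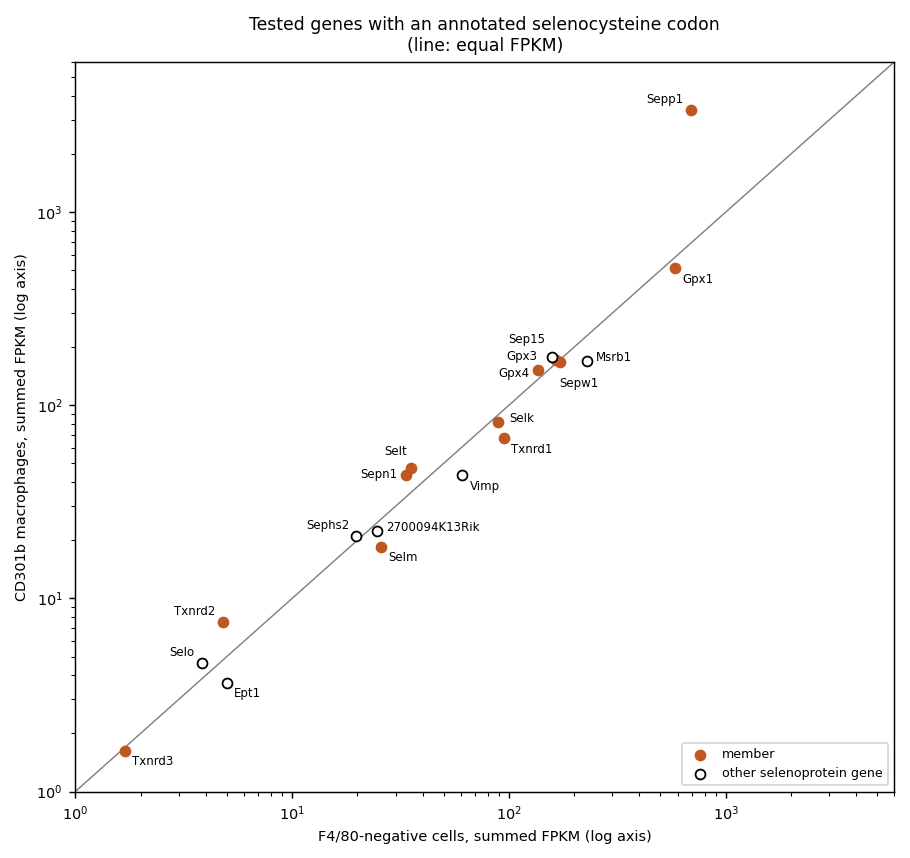
Summed FPKM of the 19 tested genes with an annotated selenocysteine codon, F4/80-negative cells on the x axis and CD301b macrophages on the y axis, both log axes, filled points for members and open points for other selenoprotein genes. Sepp1 lies at 691 and 3362 FPKM, and the other 18 have log2 folds from -0.48 to 0.56.

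The machinery that makes and inserts selenocysteine was read from a list of 10 genes. The list also held Lrp8, a receptor and not part of that machinery. Lrp8 was 1.29 and 0.933 FPKM and had the lowest log2 fold of the list, -0.25. Scly, selenocysteine lyase, which recovers selenium from selenocysteine, was higher at 5.08 against 8.16 FPKM (adjusted p = 0.0479, from the p in the authors' deposited table), and the other 9 did not pass the threshold. Eefsec, the elongation factor that brings selenocysteine to the ribosome, was 2.96 FPKM in F4/80-negative cells against 4.88 in CD301b macrophages (adjusted p = 0.0566, from the p in the authors' deposited table). The share of the list called higher was 10%, near the 11.0% of all tested genes. The list's median log2 fold was 0.23, beside 0.05 for all tested genes. Sephs2, which also holds a selenocysteine codon, was 19.8 and 21.0 FPKM and was counted in the list of 10. Among 6 tested selenoproteins outside both the members and that list none passed the threshold, and their median log2 fold was -0.25. Msrb1, which repairs oxidised methionine, was the most abundant of them in F4/80-negative cells, at 229 FPKM against 170 in CD301b macrophages. Sep15, of the endoplasmic reticulum, was 158 against 178 FPKM and was the most abundant in CD301b macrophages.

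Among the enzymes that make and recycle glutathione, 1 gene was higher, 1 was lower and 2 did not pass the threshold. Gclm, the modifier subunit of glutamate-cysteine ligase (NCBI gene 14630, chromosome 3, 122245487 to 122267215), was 16.2 FPKM in F4/80-negative cells against 32.2 in CD301b macrophages, or 1.99-fold higher. Gclc, the catalytic subunit of the same enzyme, was 9.77 and 9.22 FPKM and did not pass the threshold. Whether the 2 subunits differed from each other in fold was not tested. Gsr, glutathione reductase, which returns oxidised glutathione to its reduced form (chromosome 8, 33653238 to 33698162), went the other way at 59.5 against 31.9 FPKM and was 1.86-fold higher in F4/80-negative cells. For Gclm and Gsr alike the unadjusted p in the authors' deposited table was 5e-05, which came to 0.000999 once adjusted. Gss, glutathione synthetase, was 8.23 and 6.89 FPKM. Of 9 tested neutrophil markers, S100a8, S100a9 and Csf3r were lower and Ngp was higher in CD301b macrophages. Csf3r, with 3 tested transcripts, differed little in sum, at 71.3 FPKM in F4/80-negative cells against 68.1 in CD301b macrophages. The neutrophil markers had a summed level of 3927 FPKM in F4/80-negative cells against 2188 in CD301b macrophages, with Elane at 0 in both. S100a8 and S100a9 made up most of that sum, at 1725 and 2025 FPKM in F4/80-negative cells against 938 and 1092 in CD301b macrophages. The median log2 fold of the tested neutrophil markers was 0.08, opposite in sign to the change in the sum. Their part in the Gsr difference was not tested, nor was that of the dendritic cell markers, whose sum was also lower.

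Glutathione peroxidases were abundant and, with 1 exception, did not pass the threshold. Gpx1, the cytosolic enzyme and the most abundant of the family, was 583 FPKM in F4/80-negative cells against 512 in CD301b macrophages. Gpx3, the secreted plasma enzyme, was 164 and 172 FPKM. Gpx4, which removes lipid peroxides and guards against ferroptosis, was 137 and 152 FPKM. These 3 hold a selenocysteine codon, and none of them passed the threshold. In Gpx4, 41.6% of the 50-base words of its transcripts also occur in the transcript of its pseudogene Gpx4-ps2, so reads could not all be assigned with certainty. Gpx8, a membrane peroxidase of the endoplasmic reticulum with no annotated selenocysteine codon (chromosome 13, 113042757 to 113046430), was lower at 37.8 against 21.7 FPKM, 1.74-fold (adjusted p = 0.00458, from the p in the authors' deposited table). Gpx7, the other endoplasmic reticulum enzyme of the family and likewise without such a codon, was 23.9 and 17.3 FPKM (adjusted p = 0.173, from the p in the authors' deposited table). Fibroblast markers moved in the direction of Gpx8, with 3 of 10 lower, none higher and none at 0. Their summed level was 8453 FPKM in F4/80-negative cells against 5802 in CD301b macrophages. Of the 3, Fn1, with 7 tested transcripts, differed least in sum, at 427 against 361 FPKM. Markers of dendritic and Langerhans cells (10 of 12 lower) and of mast cells (6 of 9 tested lower) also went that way, with none higher. The part of these cell types in the Gpx8 difference was not tested.

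Superoxide dismutases did not pass the threshold, whereas catalase was higher in CD301b macrophages. Cat, the haem enzyme that splits hydrogen peroxide (chromosome 2, 103453904 to 103485153), was 34.7 FPKM in F4/80-negative cells against 59.0 in CD301b macrophages, 1.70-fold (adjusted p = 0.000999, from the p in the authors' deposited table). Red cells also carry catalase, and of 6 tested erythroid markers none passed the threshold, with a sum over 9 markers of 724 FPKM in F4/80-negative cells against 887 in CD301b macrophages. Most of that sum was globin, while the red cell gene Alas2 was 1.40 and 1.96 FPKM and Epb4.2 was at 0 in both. All 15 macrophage markers were also higher in CD301b macrophages, with a sum 2.42-fold higher. The part of either marker set in the catalase difference was not tested. Sod1, the cytosolic dismutase, was 266 FPKM in F4/80-negative cells against 296 in CD301b macrophages. Of the 50-base words of Sod1, 23.1% also occur in Gm8566, so part of its signal cannot be assigned with certainty. Sod2, of mitochondria, was 20.7 and 19.5 FPKM. Sod3, the secreted enzyme, was 39.4 and 44.6 FPKM. Sod1 was the highest and Sod2 the lowest of the 3 in both populations, with no error to set beside that order.

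None of the 6 tested peroxiredoxins passed the threshold, while sulfiredoxin, which repairs some of them, was lower. Srxn1, sulfiredoxin (NCBI gene 76650, chromosome 2, 152105524 to 152111376), was 68.3 FPKM in F4/80-negative cells against 43.7 in CD301b macrophages, or 1.56-fold lower (adjusted p = 0.0166, from the p in the authors' deposited table). It was the called member nearest to the threshold. Prdx1, the most abundant peroxiredoxin, was 557 FPKM in F4/80-negative cells against 710 in CD301b macrophages (adjusted p = 0.269, from the p in the authors' deposited table). The cytosolic Prdx2 was 205 and 191 FPKM, and Prdx5 was 217 and 185 FPKM. Prdx4, the peroxiredoxin of the secretory pathway, was 62.7 FPKM in both populations. Prdx3, of mitochondria, was 43.05 and 47.2 FPKM, and Prdx6, which uses glutathione, was 78.4 and 67.97 FPKM.

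No gene of the thioredoxin system itself passed the threshold. Txn1, cytosolic thioredoxin, was 171 FPKM in F4/80-negative cells against 128 in CD301b macrophages (adjusted p = 0.156, from the p in the authors' deposited table). Txnrd1, the cytosolic thioredoxin reductase, was 94.5 and 67.6 FPKM (adjusted p = 0.0758, from the p in the authors' deposited table). Txnrd2, its mitochondrial counterpart, had the reverse order at 4.81 and 7.54 FPKM, and mitochondrial Txn2 was 50.95 and 56.7 FPKM. Txnip, the inhibitor that binds thioredoxin, was 141 FPKM in F4/80-negative cells against 182 in CD301b macrophages. Txnrd3, a reductase best known from testis, was 1.70 and 1.63 FPKM.

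Among 10 tested thioredoxin-like and thioredoxin-domain genes, Txndc16 alone was higher. It encodes a luminal glycoprotein of the endoplasmic reticulum (chromosome 14, 45134448 to 45219551) and was 7.22 FPKM in F4/80-negative cells against 13.5 in CD301b macrophages, 1.86-fold (adjusted p = 0.000999, from the p in the authors' deposited table). Txndc5, a protein disulfide isomerase, was 60.3 and 55.7 FPKM. Txnl4a, a spliceosome component, was 39.9 and 45.4 FPKM, and Txndc17 was 43.2 and 42.01 FPKM. Txndc12 and Txndc15 were each near 24 FPKM in F4/80-negative cells (23.8 and 23.9) and reached 30.9 and 31.5 FPKM in CD301b macrophages. Txnl1 was 24.3 and 23.2 FPKM, Txndc11 was 16.7 and 13.3 FPKM, and Txndc9 was 9.35 and 10.9 FPKM. Txnl4b, at 2.95 and 4.68 FPKM, did not pass (adjusted p = 0.0966, from the p in the authors' deposited table).

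Glutathione S-transferases couple glutathione to electrophiles, and 1 of 14 tested was higher. Gstm1, a mu-class transferase (NCBI gene 14862, chromosome 3, 108012250 to 108017973), was 31.6 FPKM in F4/80-negative cells against 68.9 in CD301b macrophages, 2.18-fold (adjusted p = 0.000999, from the p in the authors' deposited table). Gstm2, of the same class, was 24.7 and 24.1 FPKM. Gstm1 shares 23.1% of its 50-base words with other genes, most of them with Gstm2-ps1, so part of its signal cannot be assigned with certainty. Gstp1, of the pi class, was 68.9 and 86.9 FPKM, and Gstp2 was 28.9 and 33.7 FPKM. Gstp1 and Gstp2 could not be cleanly separated, since 62.3% of the words of Gstp1 also occur in Gstp2. Gsto1, of the omega class, was 94.1 and 81.96 FPKM and was the most abundant transferase in F4/80-negative cells. Gstm5 was 8.60 and 10.8 FPKM. Gstt1, a theta-class transferase, was 8.97 FPKM in F4/80-negative cells against 4.95 in CD301b macrophages and was the uncalled member nearest to the threshold (adjusted p = 0.0603, from the p in the authors' deposited table). The 7 other tested transferases, Gsta4, Gstcd, Gstk1, Gstm4, Gstt2, Gstt3 and Gstz1, stayed under 8 FPKM in both populations and did not pass.

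NRF2, its regulator and its readout gene did not pass the threshold. Nfe2l2 was 227 FPKM in F4/80-negative cells against 276 in CD301b macrophages (adjusted p = 0.401, from the p in the authors' deposited table). Keap1 was 7.99 and 11.7 FPKM (adjusted p = 0.0998, from the p in the authors' deposited table). Nqo1, a quinone reductase often used as a readout of NRF2, was 2.11 and 1.93 FPKM. Gclm, Gsr, Srxn1 and Txnrd1 are some of the textbook NRF2 targets, and among them Gclm was higher, Gsr and Srxn1 were lower and Txnrd1 did not pass the threshold. The other members were not sorted into targets and non-targets, so these calls do not stand for all NRF2 targets.

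The promoters of members were searched for the core of the antioxidant response element, the site bound by NRF2. The motif was TGACNNNGC on either strand, in windows from 250 bases before to 50 bases after the start site (RefSeq, GRCm38.p6), and 64 of the 74 members had such a window. It was found in 13 of the 84 member promoters (15.5%) and in 12.4% of all 32851 promoters. Counted by gene, 20.3% of the members with a window, untested members included, and 13.99% of all genes held it, while the share was 16.8% among tested genes. Gsr had no window. Windows of 4 members are shown, with the motif in capitals: the 2 that hold it of 7 called members with a window, Gclm and Srxn1, and 2 abundant members that did not pass, Prdx1 and Txnrd1. In all 4 the motif lies on the strand opposite to the gene, so it reads GCNNNGTCA. Elsewhere among the members, Nfe2l2 and Selk held it on the gene's own strand and Sod1 on the opposite one. Positions count from the start site of the RefSeq window shown to the first base in capitals. For Gclm and Txnrd1 that start site, at 122245557 and 82859206, lies inside the gene's outer bounds.
Gclm, position -134, chr3:122245413-122245441, plus strand: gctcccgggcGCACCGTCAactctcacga
Srxn1, position 28, chr2:152105542-152105570, plus strand: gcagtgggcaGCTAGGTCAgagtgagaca
Prdx1, position -133, chr4:116685456-116685484, plus strand: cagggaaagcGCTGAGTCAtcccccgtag
Txnrd1, position -92, chr10:82859104-82859132, plus strand: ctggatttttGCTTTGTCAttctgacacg
These 4 genes included 1 higher, 1 lower and 2 that did not pass. A match of these letters is a description and does not show a bound site.

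Of the members, 11 had more than 1 tested transcript. Sepp1 has 3 transcripts: the main one was 668 FPKM in F4/80-negative cells against 3234 in CD301b macrophages and held 96.8% and 96.2% of the sum. The second, at 21.3 and 125 FPKM, was also higher (adjusted p = 0.000999 for both, from the p in the authors' deposited table). The third was 1.08 and 2.62 FPKM and did not pass. In Txndc11 the main transcript was 11.4 and 10.9 FPKM, while the minor one was 5.30 and 2.38 FPKM with 31.7% and 17.9% of the sum (adjusted p = 0.121, from the p in the authors' deposited table). In Prdx6 the main transcript was 73.2 and 66.1 FPKM, and the minor transcripts were 4.04 and 1.33 FPKM and 1.24 and 0.497 FPKM, none past the threshold. The main transcript of Keap1 was 6.10 and 9.33 FPKM and did not pass. No member had transcripts past the threshold in opposite directions.

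**Figure D4:**
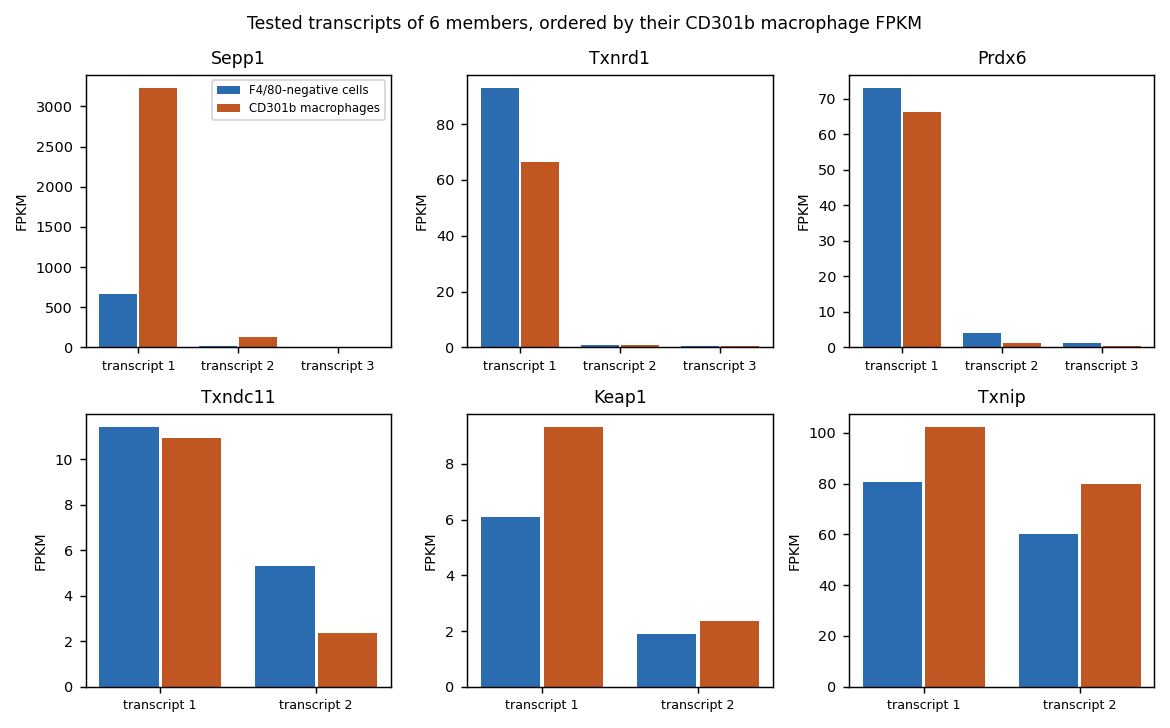
FPKM of each tested transcript of Sepp1, Txnrd1, Prdx6, Txndc11, Keap1 and Txnip, with bars from 0 for F4/80-negative cells and CD301b macrophages and transcripts ordered by their CD301b macrophage FPKM. Transcripts 1 and 2 of Sepp1 were higher in CD301b macrophages, and no transcript of the other 5 genes passed the threshold.

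Neighbouring pathways were read from lists of other genes, each described by its calls and its median log2 fold beside the 11.0% higher, 6.20% lower and median of 0.05 of all tested genes. Of 17 other NRF2 target genes, 5 were higher and none was lower, with a median log2 fold of 0.43. This list was chosen with earlier results of these data known. Hmox1, haem oxygenase 1, was 527 against 1270.0 FPKM, and Slc48a1, a haem transporter, was 2.36-fold higher with 106 FPKM in CD301b macrophages. G6pdx, the enzyme that opens the pentose phosphate pathway and supplies NADPH to glutathione reductase, was 44.7 FPKM in F4/80-negative cells against 74.9 in CD301b macrophages, 1.68-fold. Blvra, biliverdin reductase A, was 33.5 against 52.6 FPKM. Abcc1, an exporter of glutathione conjugates, was the fifth, at 26.2 against 39.5 FPKM, and was named after its values were seen. Hmox1, Slc48a1 and Blvra act on haem or its products.

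Of 19 tested genes of glutathione transport, turnover and glutaredoxins, 3 were higher and none was lower, with a median of 0.19. Hpgds, a sigma-class glutathione transferase that makes prostaglandin D2, was 8.74 FPKM in F4/80-negative cells against 24.8 in CD301b macrophages, 2.84-fold. Ltc4s, which joins glutathione to leukotriene A4, was 16.4 against 34.0 FPKM (adjusted p = 0.0376, from the p in the authors' deposited table). Oplah, which recycles 5-oxoproline, was the third at 1.38 against 2.55 FPKM, likewise named after its values were seen. Hpgds and Ltc4s use glutathione to make lipid mediators, whereas the cystine importer Slc7a11, which feeds glutathione synthesis, was 17.0 and 14.97 FPKM and did not pass. Of 10 tested partners and regulators of NRF2, Dpp3, a peptidase that binds KEAP1, was higher at 15.7 against 28.8 FPKM, and the other 9 did not pass. The median of this list was -0.09, below that of all tested genes.

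Of 11 tested sources of oxidants, 3 were higher and none was lower, with a median of 0.28. Cybb, the catalytic subunit of the phagocyte NADPH oxidase, was 94.2 FPKM in F4/80-negative cells against 165 in CD301b macrophages, 1.75-fold. Its partner Cyba was 313 and 380 FPKM and did not pass the threshold. Xdh, xanthine dehydrogenase, was 39.8 against 77.03 FPKM, and Hvcn1, the proton channel that balances the oxidase, was 8.18 against 12.3 FPKM. Of 12 genes of methionine sulfoxide repair and other protection, Sesn1, a stress-induced sestrin, was higher at 11.1 against 33.6 FPKM. Mt2, a metallothionein, was lower at 182 against 103 FPKM. Their relatives moved the other way and did not pass. Sesn2 was 13.1 and 10.6 FPKM, Sesn3 was 6.38 and 5.37 FPKM, and Mt1 was 176 and 206 FPKM. The median of this list was 0.17.

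**Figure D5:**
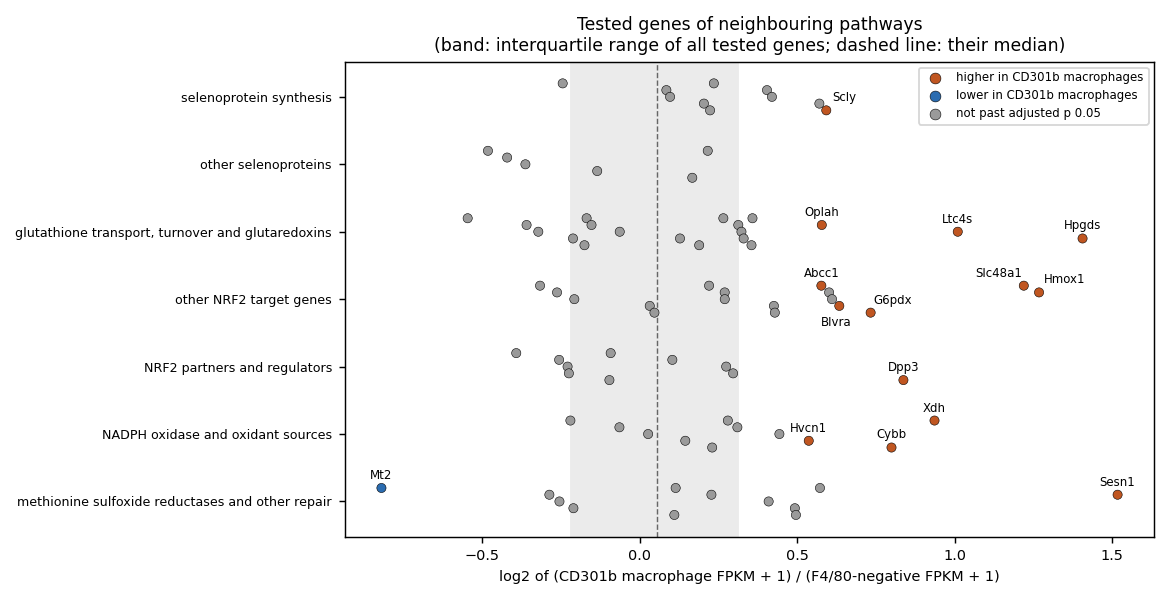
Log2 fold of the tested genes of 7 neighbouring pathway lists on the log2(FPKM + 1) scale, with genes past the adjusted p of 0.05 coloured and named and the band spanning the interquartile range of all tested genes. The coloured genes lie to the right except Mt2, at -0.82.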

How the data were processed

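RNA was sequenced from mRNA libraries of the 2 sorted populations, 2 libraries each. Alignment and comparison used TopHat2 2.0.2 and Cuffdiff 2.0.2 with the build mm9, as listed in the submitters' processing notes. The authors deposited 1 table with 1 FPKM per transcript and population. How libraries were combined, the strand setting and the depth are not stated in the labels or the table. The deposited p-value of each transcript is unadjusted, with a lower limit of 5e-05. Here it was adjusted by the Benjamini-Hochberg method over 16921 transcripts of status OK, which gave the same 2408 calls as the deposited column. No model could be fitted without values per library. The deposited loci of all 74 members nevertheless overlapped their RefSeq genes on GRCm38.p6, whose positions are printed, so the named build is in doubt. Folds are on the log2(FPKM + 1) scale or ratios of summed FPKM. The members, roles, lists and tests were chosen with earlier results of these data known. Genes named were the called members, those at 10 FPKM or more, those beside the threshold, and, of each pathway list, up to 4 called genes that reached 5 FPKM (with no call, the gene of highest FPKM). Other genes named, among them the members Gss, Gclc, Nqo1 and Txnrd3, were chosen after their values were seen. The calling script was tested on simulated data. The planted changes were larger than those of every called member but Sepp1, so the test does not speak to smaller ones. Python 3.11.15, pandas 2.3.3 and numpy 2.4.6 were used. Alternatives were an adjusted p of 0.01, the most abundant transcript alone, a correction for the number of transcripts, a filter at 1 FPKM, a pseudocount of 0.1, median scaling and smaller member sets. Marker lists of mast cells, keratinocytes, T cells and endothelium are given in the closing section.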

Additional observations from a re-analysis of the deposited data

How the results depend on the processing

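The 5 higher members remained 5 at an adjusted p of 0.01, with the most abundant transcript alone and with the correction for the number of transcripts. Among called members only Sepp1 had more than 1 transcript, so the most abundant transcript alone could change only its call. The 1 FPKM filter and median scaling also left 5, but both kept the same adjusted p-values. Every called member exceeded 1 FPKM and had a log2 fold larger than the shift from scaling, so these settings could not change the calls. They were 4 without thioredoxin-like and thioredoxin-domain genes, where Txndc16 left, and 4 without Sepp1. The 3 lower members became 2 at an adjusted p of 0.01, where Srxn1 no longer passed, and were 3 under the other alternatives named. At 0.01 the share of all tested genes called was 6.504% higher and 3.54% lower, so the members' 8.47% higher lay above that background, whereas at 0.05 it lay below 11.0%. Scaling each population to its median gene shifted log2 folds by -0.10, took the median of the members from 0.09 to 0.01, and turned the sign of Gpx3, which was not called. The ratio of summed FPKM, 1.57, was 1.04 without Sepp1 and 1.02 without Sepp1, Prdx1 and Gpx1. For 45 named members, 135 values under another pseudocount, median scaling or the most abundant transcript alone were compared, and none moved by over 1.5 times. Among these settings, only the most abundant transcript alone could bear on a call, and only on that of Sepp1. The main transcript of Sepp1 had itself passed the threshold, so that call stood. Leaving out a library was not possible with 1 value per population. No paired analysis was possible because the columns carry no replicate. Depth is unknown, so values under 1 FPKM carry no stated precision.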

Other observations

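Levels of partner genes within a population were set side by side as ratios of FPKM, a per-length measure, with pairs chosen after their values were seen. The FPKM of Gclm was 1.65 times that of Gclc in F4/80-negative cells and 3.49 times in CD301b macrophages. Srxn1 stood at 0.123 of the FPKM of Prdx1 in F4/80-negative cells and at 0.0615 in CD301b macrophages. The ratio of Txn1 to its inhibitor Txnip was 1.21 and 0.702 in the same order. No test of these ratios was possible.

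When the FPKM of each of the 24 selenocysteine genes was multiplied by its number of annotated selenocysteine codons, Sepp1 held 78.9% of the total in F4/80-negative cells and 95.1% in CD301b macrophages. This counts codons in transcripts and says nothing of protein.

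Of 9 tested mast cell markers 6 were lower in CD301b macrophages and none was higher (summed FPKM 166 against 106), and of 11 keratinocyte markers 1 was lower (227 against 181). None of 6 tested T cell markers (9.57 against 7.92) and none of 8 endothelial markers (78.8 against 66.8) passed the threshold.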
